A study of Culex quinquefasciatus with 20 samples.

Results

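A group of 159 *Culex quinquefasciatus* genes had lower transcript levels in females that malathion had knocked down than in the other 3 groups. Members were chosen from the measured levels, in read counts scaled to library size with the trimmed mean of M-values (CPM below). Every malathion susceptible library had to lie below every library of the other 3 groups, and the malathion resistant mean had to lie between 0.67 and 1.5 times the unexposed field mean. The colony and field means had to reach 1 CPM, with a mean under 1000 CPM over all 20 libraries. The 159 members were all the genes that met the rule, of 17499 genes tested and 19793 in the count tables, so the limit of 200 genes that it set was not reached.

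The study sequenced RNA from whole adult females, in pools, with 5 libraries in each of 4 groups. Malathion susceptible (MS) females came from the field population and were knocked down during a bottle assay with 400 µg malathion per bottle, and by the study's methods were dead when the 120 min exposure ended. Malathion resistant (MR) females came from the same population, went through the same exposure and were still alive after a further day of holding. Wild (WI) females were reared from field-collected eggs and were not exposed. Colony (CO) females were of the insecticide-susceptible Sebring laboratory strain, reared without exposure. MS and MR females differed in outcome, in being dead or alive and in the time of collection, which cannot be told apart in these libraries. The labels call the replicates biological and the methods call them technical, each being a separate pool, so p-values measure the spread between these pools. In whole-body RNA, fewer cells of a type and less RNA per cell cannot be told apart.

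Malathion is an organophosphate whose activated form inhibits acetylcholinesterase, the enzyme that ends cholinergic signalling. Many of the annotated members belong to ribosome biogenesis, the process in which ribosomal RNA is transcribed, cut and chemically modified in the nucleolus and joined with proteins into the ribosomal subunits. RNA helicases, methyltransferases and pseudouridine synthases act in that process and in the maturation of transfer RNA. In *Aedes aegypti* females ribosome production is known for its rise in the fat body around a blood meal.

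Library totals ran from 143972261 to 189723320 counts. MS replicate 1 stood apart from the other MS libraries, with a scaling factor of 1.08 against 0.563 to 0.704 in the other 4. The 2 most counted genes of the series took 11.5% of its counts, the lowest share in a group that reached 32.7%. The corresponding shares were 13.7% to 25.9% in MR, 10.9% to 23.1% in WI and 4.51% to 13.4% in CO libraries. With the 2 most counted genes of the series taken out before scaling, 148 genes met the rule, 140 of them members, and the median ratio of the MS mean to the WI mean over the members was 0.498, against 0.486 with those genes in.

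The median member had a mean of 7.61 CPM in MS females, against 15.1 CPM in MR, 17.6 CPM in WI and 22.3 CPM in CO females. The ratio of the MS mean to the WI mean had a median of 0.486 and ran from 0.0271 to 0.744, and in 86 members the MS mean was at or below 0.5 of the WI mean, with 12 at or below 0.25. Since the rule selected on these levels, they are a description and carry no test. The corresponding median ratio was 0.546 for MS over MR and 0.368 for MS over CO. Among 11807 genes at the required levels, 277 had every MS library below every other library, a background of 2.35%. Of these, 115 had an MR mean under the band around the WI mean and 3 had one above it, which left the 159 members.

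The members' WI mean had a median of 17.6 CPM, against 10.7 CPM over the genes at the required levels. It ran from 1.18 to 668 CPM, and 71.1% of members lay between 5 and 50 CPM, against 55.7% of the genes at the required levels. The median coefficient of variation over members was 16.8% in MS, 14.3% in MR, 18.3% in WI and 32.7% in CO libraries. Over the genes at the required levels it was 20.8% in MS, 21.6% in MR, 27.3% in WI and 41.1% in CO libraries. The rule favours genes with little spread, so nothing is read from this difference.

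Within the band, most members were somewhat lower in MR than in WI females. The MR mean lay below the WI mean in 129 members and above it in 30, with a median ratio of 0.843. Every MR library was below every WI library in 16 members and above every WI library in 0. The shares over all genes were not counted and the band bears on these numbers, so they only describe the members. Members just inside the lower edge of the band included CPIJ010231, with an MR mean of 0.671 times the WI mean, and the nearest gene outside that edge had 0.668. At the upper edge the nearest gene inside had 1.49 and the nearest outside 1.58. The separation itself was narrow for many members: the lowest library of the other groups was a median of 1.12 times the highest MS library, 73 members had under 1.1 times, and the smallest was 1.001 times. Another 113 genes at the required levels and in the band missed the separation by a factor of under 1.1, and 18 members had a gap of 1.5 times or more.

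**Figure D1:**
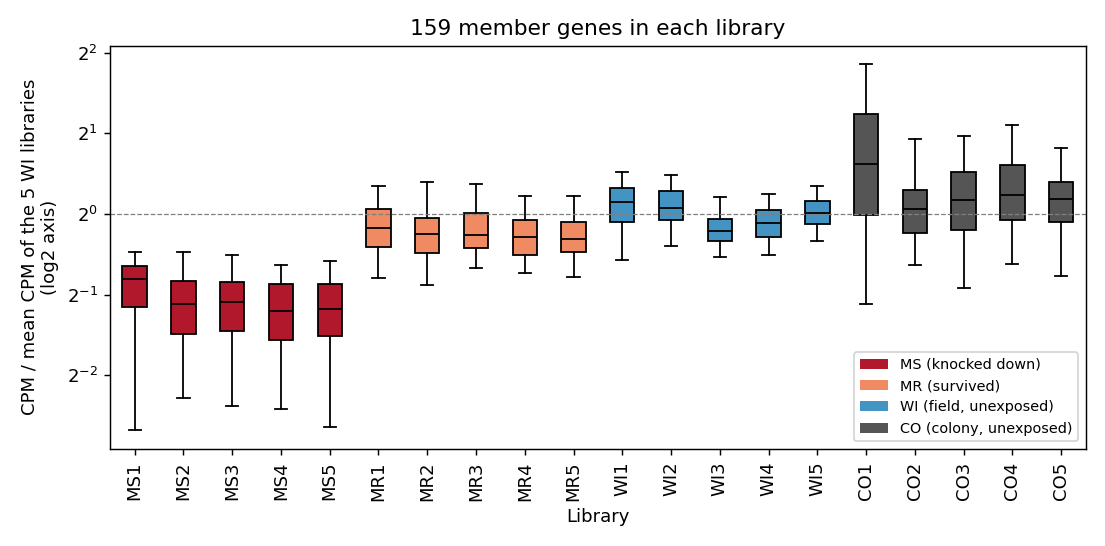
Level of the 159 members in each library, as CPM over the mean of the 5 WI libraries on a log2 axis (box, middle 50% of genes with the median; whiskers, 5th to 95th percentile). The 5 MS medians lie between 0.435 and 0.571, the MR medians between 0.804 and 0.890, the WI medians between 0.867 and 1.11 and the CO medians between 1.04 and 1.54.

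Per library, the median member stood at 0.571 of its WI mean in MS replicate 1 and at 0.435 to 0.469 in the other 4 MS libraries, against 0.804 to 0.890 in MR libraries, 0.867 to 1.11 in WI libraries and 1.04 to 1.54 in CO libraries. The highest MS library was replicate 1 for 86 of 159 members. Summed over the members, the levels were 4894 to 5047 CPM in MS, 8211 to 9101 CPM in MR, 8852 to 11950 CPM in WI and 10296 to 15111 CPM in CO libraries. The MS sums did not overlap those of any other group, as the rule requires of each member, whereas MR and WI sums overlapped. With MS replicate 1 left out the median ratio of MS to WI was 0.462, and 294 genes met the rule in place of 159, including all 159. With CO replicate 4 left out, 252 genes met it, again including all 159. With library size as the only scaling, 364 genes met it, 118 of them members, and the median ratio was 0.350.

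The 3 members with the deepest falls were not on the ribosome biogenesis lists. CPIJ018858, listed under tRNA processing, had the lowest ratio of the MS mean to the lowest mean of the other groups. Its level was 1.01, 0.754, 0.245, 1.14 and 0.847 CPM in MS libraries, against 17.0, 9.70, 14.9, 33 and 36.9 CPM in MR, 14.1, 31.6, 21.2, 40.9 and 39.6 CPM in WI, and 9.31, 79.2, 10.6, 57.7 and 14.6 CPM in CO libraries. The MS mean was 0.0271 of the WI mean, and the lowest library outside MS was 8.16 times the highest MS library. CO libraries were split between 2 high and 3 lower values, and all of them lay above MS.

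CPIJ005204 encodes peptide methionine sulfoxide reductase msrA, an enzyme that returns oxidised methionine in proteins to methionine, and the study counted it in its glutathione S-transferase list although its name is not that of a transferase. It had 1.93, 3.16, 0.549, 1.83 and 1.79 CPM in MS libraries, against 13, 16.1, 24.9, 29.5 and 19.3 CPM in MR, 28.7, 16.8, 14.9, 36.6 and 19.0 CPM in WI, and 39, 122, 44.1, 29.5 and 70.4 CPM in CO libraries. MR and WI libraries overlapped, and MS stood at 0.0798 of the WI mean. A second methionine sulfoxide reductase gene, CPIJ018565, was not a member: its mean was 8.75 CPM in MS, 87.0 CPM in MR, 150.4 CPM in WI and 61.0 CPM in CO females, separated in the same way, but with an MR mean of 0.579 times the WI mean, outside the band.

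The second deepest member, CPIJ015762, has no annotation used here and was near the detection limit in MS females. Its counts were 0, 0, 16, 0 and 7 reads in MS libraries, against 141, 110, 97, 202 and 367 reads in MR, 374, 178, 254, 121 and 152 reads in WI, and 324, 344, 379, 677 and 612 reads in CO libraries. It was detected in 2 of the 5 MS libraries and in every library of the other groups.

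Other deep members are listed under lipid and amino acid breakdown. CPIJ012159, listed under sphingolipid catabolism, the breakdown of a class of membrane lipids, had 2.15, 2.41, 2.55, 2.45 and 3.03 CPM in MS libraries, against 14.1, 7.66, 7.98, 7.13 and 6.18 CPM in MR, 12.3, 5.26, 15.7, 13.8 and 10.7 CPM in WI, and 9.21, 7.64, 8.36, 13.3 and 8.55 CPM in CO libraries. The 5 MS values were tight, at 0.217 of the WI mean. CPIJ014981, listed under amino acid catabolism and transaminase activity, and also on the methyltransferase list, had 24.3 to 30.5 CPM in MS libraries, against 58.9 to 75.3 CPM in MR, 70.7 to 97.5 CPM in WI and 108 to 241 CPM in CO libraries. MR and WI overlapped, while MS was below both and CO above both.

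**Figure D2:**
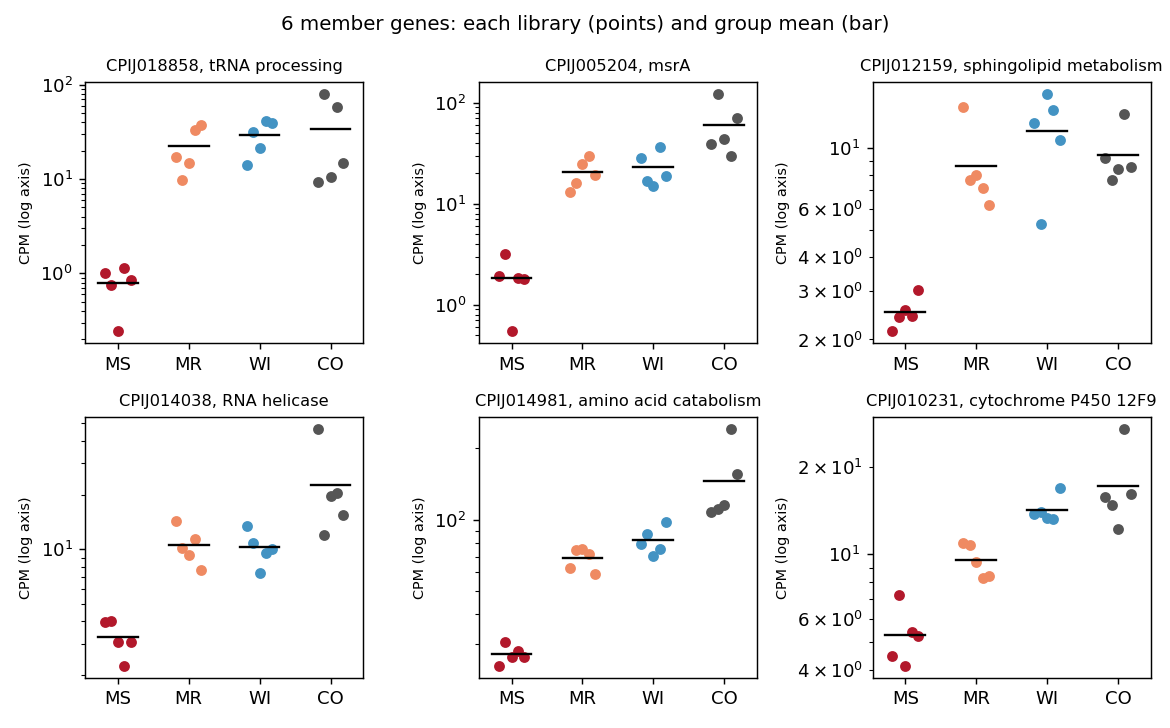
CPM in each library (points, log axis) and group mean (bar) for 6 members, with MS at the left of each panel. In CPIJ018858 and CPIJ005204 the MS points lie far below the other groups, at 0.0271 and 0.0798 of the WI mean, and in CPIJ010231, cytochrome P450 12F9, MR also lies below WI, at 0.671 of it.

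Some further members were chosen after their values were seen. CPIJ002682, listed under glutathione metabolism, averaged 1.37 CPM in MS, 8.62 CPM in MR, 9.60 CPM in WI and 4.99 CPM in CO females. CPIJ001337, listed under de novo UMP biosynthesis, the pathway that makes pyrimidine nucleotides, had 40.03 to 46.0 CPM in MS libraries, against 90.8 to 127 CPM in MR, 84.9 to 156 CPM in WI and 90.2 to 123 CPM in CO libraries. The 3 other groups overlapped and MS stood at 0.355 of the WI mean.

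CPIJ009404, a trehalose metabolism gene, was among the most abundant annotated members, with 294 to 355 CPM in MS libraries, against 448 to 1060 CPM in MR, 458 to 850 CPM in WI and 607 to 826 CPM in CO libraries. Trehalose is the main blood sugar of insects. The neighbouring identifiers CPIJ006704 and CPIJ006705, both listed under protein kinase C activity, stood at 0.485 and 0.533 of the WI mean in MS females, with MR over WI ratios of 1.14 and 0.989.

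Of 60 cytochrome P450 genes the study listed, 1 was a member, and of 26 listed as glutathione S-transferases 2 were, while none of 8 esterases was, beside 159 of 17499 genes tested. CPIJ010231, the cytochrome P450 12F9 gene, had 4.46, 7.25, 4.13, 5.40 and 5.22 CPM in MS libraries, against 10.9, 10.8, 9.40, 8.32 and 8.43 CPM in MR, 13.8, 14, 13.3, 13.2 and 17.0 CPM in WI, and 15.7, 14.8, 12.2, 27.0 and 16.2 CPM in CO libraries. MS, MR and WI libraries formed 3 separate ranges, and this gene lies just inside the band. The listed transferases that were members are CPIJ005204 and CPIJ010674, and the name of CPIJ010674, proliferating-cell nucleolar antigen p120, is that of an RNA methyltransferase of the nucleolus. CPIJ008947, listed under carbohydrate transport, and CPIJ008554, listed under peptidase inhibitor activity, stood at 0.331 and 0.454 of the WI mean in MS females.

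Of the 159 members, 59 carry a term in the study's gene ontology annotation and 100 do not. The terms come from tables that the study made from genes it had called between groups of these same libraries, so a gene without a term may have one that was not used here, and the number of members on a list is not independent evidence of a direction. Of 47 genes on 5 ribosome biogenesis lists (rRNA processing, nucleolus, ribosomal large subunit biogenesis, preribosome and small-subunit processome), 18 were members. With lists of RNA helicases, tRNA processing, RNA modification and methyltransferases added, 31 of 85 genes were members. Beside these counts, 59 of 1099 tested genes with a term were members, and 159 of all 17499 genes tested. The 31 had a median MS level of 0.431 of WI, and the other 128 members 0.503. Without MS replicate 1 the median was 0.383 in the 31 and 0.462 over all 159 members. The 59 members with a term had 0.433 and the 100 without one 0.526, so the difference is not read as one of RNA function.

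In the 18 ribosome biogenesis members, the median level relative to the WI mean was 0.556, 0.417, 0.438, 0.370 and 0.360 in MS libraries, against 0.971, 0.832, 0.887, 0.791 and 0.854 in MR, 1.08, 1.11, 0.879, 0.937 and 0.979 in WI, and 2.35, 1.02, 1.25, 1.34 and 1.13 in CO libraries. CO replicate 1 was above every other library, and was the highest CO library for 14 of the 18, while MS replicate 1 was the highest MS library for 14 of them. Without MS replicate 1 the median MS over WI ratio of the 18 was 0.386, against 0.432 with it. Without CO replicate 1 the WI over CO ratio was 0.871, against 0.703 with it.

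Among the rRNA processing members, CPIJ004081, listed under rRNA binding, had the deepest fall of the 18. It had 8.75, 6.61, 6.13, 5.86 and 5.89 CPM in MS libraries, against 19.9, 11.9, 15.1, 14 and 13.9 CPM in MR, 24.8, 29.3, 19.2, 14.9 and 22.3 CPM in WI, and 38.7, 32.1, 22.3, 30.4 and 21 CPM in CO libraries. MS was highest in replicate 1, and MR and WI overlapped. CPIJ010674, the p120 gene, stood at 0.337 of the WI mean in MS females and CPIJ008791, listed under rRNA modification, the nucleolus and tRNA processing, at 0.375.

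For the small subunit, CPIJ009431 and CPIJ004078 are listed under the processome, the large complex that cuts and folds the precursor of the small-subunit RNA. CPIJ004078 had 5.67, 3.61, 3.90, 3.60 and 4.15 CPM in MS libraries, against 11.6, 12.5, 10.2, 9.10 and 9.09 CPM in MR, 9.91, 9.04, 7.01, 6.26 and 7.20 CPM in WI, and 30.9, 8.18, 11.3, 7.44 and 9.81 CPM in CO libraries. It was among the members with an MR mean above WI, at 1.33 times. CPIJ009431 stood at 0.436 of the WI mean in MS and at 0.959 in MR females. For the large subunit, CPIJ008588, listed under its assembly, had 3.16 to 5.00 CPM in MS libraries, against 7.32 to 10.7 CPM in MR, 9.20 to 11.4 CPM in WI and 8.71 to 15 CPM in CO libraries, and CPIJ006169 stood at 0.366 of the WI mean in MS. CPIJ002895, listed under the preribosome, stood at 0.368.

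**Figure D3:**
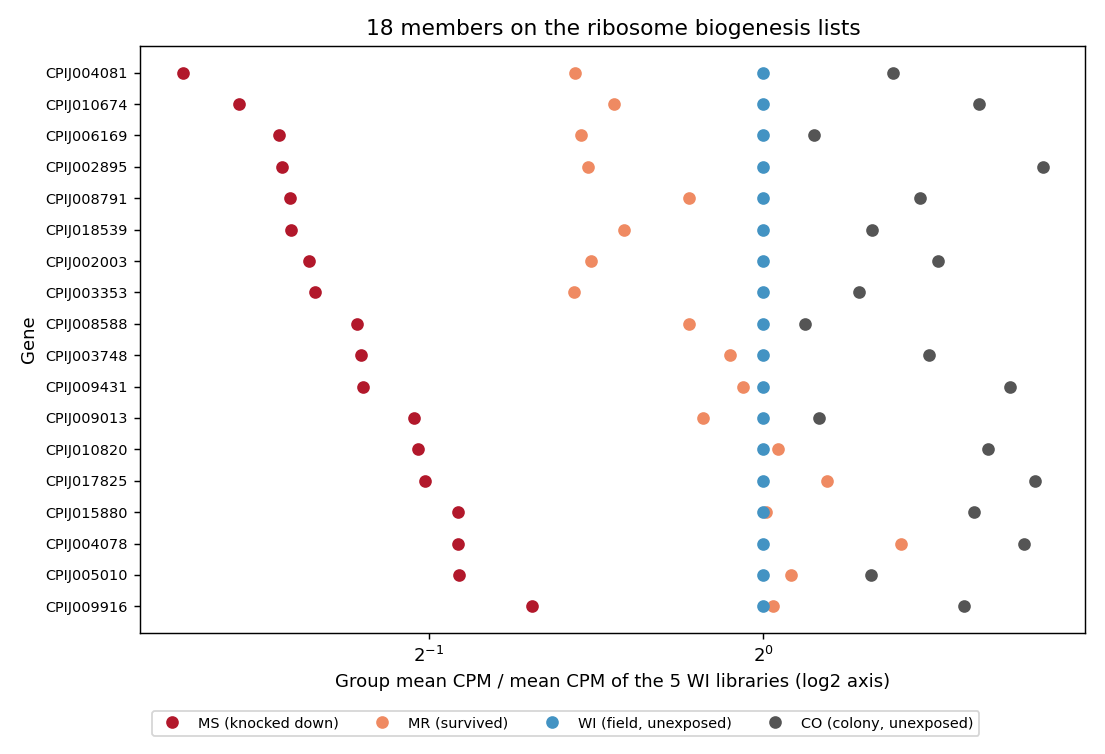
Group mean CPM over the WI mean (log2 axis) for the 18 members on the ribosome biogenesis lists, ordered by the MS value. MS runs from 0.301 in CPIJ004081 to 0.619, MR from 0.675 to 1.33, and the CO mean lies above the WI mean, drawn at 1, in all 18.

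RNA helicases unwind RNA during ribosome assembly and other steps of RNA processing. Of 15 listed ones 5 were members, beside 59 of 1099 tested genes with a term. CPIJ014038 had 3.97, 4.02, 3.08, 2.26 and 3.08 CPM in MS libraries, against 14.4, 10.1, 9.26, 11.5 and 7.73 CPM in MR, 13.5, 10.9, 7.36, 9.55 and 10.1 CPM in WI, and 46.6, 12, 19.8, 20.5 and 15.4 CPM in CO libraries. CPIJ012510 stood at 0.482 of the WI mean in MS females and at 1.19 in MR females. CPIJ000029, a pseudouridine synthase, which turns uridine in RNA into its isomer, had 18.9, 11.4, 13.6, 10.7 and 11.9 CPM in MS libraries, against 38.5, 32.5, 34.7, 35 and 30.8 CPM in MR, 48.4, 36.6, 35.2, 32.8 and 34.2 CPM in WI, and 135, 36.7, 70.3, 54.5 and 53.1 CPM in CO libraries. In both the helicase CPIJ014038 and the synthase, MR and WI overlapped and CO replicate 1 was far the highest.

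The listed genes that were not members were mostly lower in MS females too, on lists that the study had selected from MR against MS of these libraries. Calls below are by edgeR's quasi-likelihood test with Benjamini-Hochberg adjustment over 17499 genes at a false discovery rate (FDR) of 0.05. Of the 29 ribosome biogenesis genes that were not members, 20 were lower in MS than in WI and none was higher, and all 29 had a log2 fold change below 0, where 11% of all genes tested were called lower and 12.3% higher. Their median log2 fold change was -1.13, against -0.07 over all genes. Since the lists were selected with the MS libraries, these values are a description and are not read against those of all genes. Of these 29, 18 missed the separation from every other library, 9 were separated but fell outside the MR band and 2 missed the level criteria. The 20 ran from 14 without MS replicate 3 to 24 without MS replicate 1 when single MS or WI libraries were left out.

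In MR against WI females, 9 of these 29 genes were lower, where 3.99% of all genes were called lower and 4.95% higher. The band of MR over WI had helped to decide which genes were not members, so this count is not read against that share. Across all 9 RNA lists, 34 of 54 genes that were not members were lower and 5 higher in MS than in WI females.

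**Figure D4:**
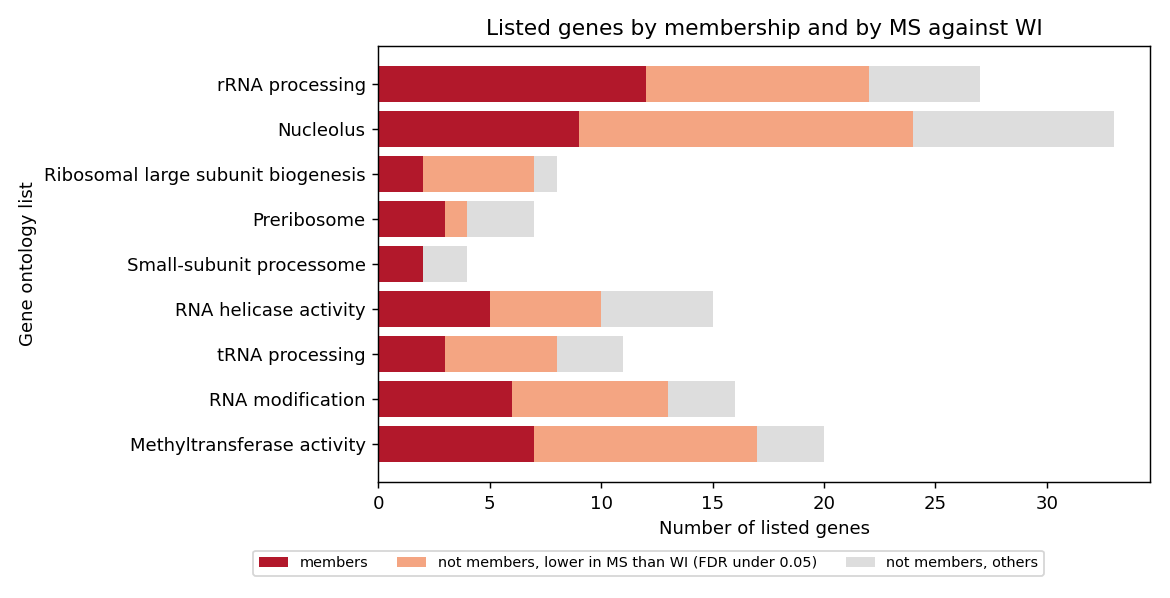
Number of genes on each of 9 gene ontology lists, split into members, genes that are not members and were lower in MS than WI (edgeR FDR under 0.05), and the rest. The rRNA processing list holds 12 members of 27 genes and the nucleolus list 9 of 33, beside 59 of 1099 tested genes with a term.

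The comparison of WI with CO females, both unexposed, asks how the members differ between the field population and the laboratory strain. The rule did not set WI against CO directly, but it used the levels of both groups. The WI mean lay below the CO mean in 130 of 159 members, with a median ratio of 0.806. Without CO replicate 1 it did so in 121, with a median ratio of 0.880. The share over all genes was not counted, so these numbers are a description of the members. By edgeR's quasi-likelihood test at an FDR of 0.05, 23 members were lower and 1 was higher in WI than in CO females, 14.5% and 0.629% of the members, where 4.15% of all genes tested were lower and 6.3% higher. Over genes at the same required levels, 4.55% were lower and 6.11% higher. Every member had to have all WI and CO libraries above MS. The band also tied the WI mean to the MR mean and placed no such tie on the CO mean. The members are therefore not a random draw of these genes, and their shares are not read against those of all genes. The median log2 fold change was -0.31 for members and -0.02 for all genes. In the same edgeR test 62 members had an unadjusted p under 0.05, and the share of all genes at that threshold was not counted.

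The count moved with the fit and with single libraries. The shares of all genes called under these alternatives were not counted, so the numbers below show only how the count of members moved. With only WI and CO libraries in the edgeR fit, 1 member was lower and 0 were higher, with 41 lower and 3 higher at an unadjusted p under 0.05. DESeq2 called 42 lower and 1 higher. The labels name no pairing of WI and CO replicate numbers. With a replicate block in the fit, as an alternative, 36 members were lower and 4 higher. The count of lower members was 11, 12, 10 and 12 without WI replicate 2, 3, 4 and 5, and 8, 42 and 15 without CO replicate 1, 2 and 3. The count of higher members was 3 without CO replicate 2 and 2 without CO replicate 4. With CO replicates 1 and 2 both left out, an alternative chosen after seeing the data, 23 members were lower and 2 were higher.

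The largest fall was in CPIJ008926, a mismatch repair gene, whose product recognises mispaired bases in DNA. It had 3.20, 2.45, 4.99, 4.30 and 4.94 CPM in WI libraries, against 25, 2.96, 34.1, 26.5 and 28.4 CPM in CO libraries, and 1.03 to 2.04 CPM in MS and 3.41 to 5.35 CPM in MR libraries. CO replicate 2 was within the WI range and the other 4 CO libraries were far above it. The log2 fold change of WI over CO was -2.56 ± 0.41 (SE), with an edgeR adjusted p of 0.000302, and between -2.84 and -2.38 when single libraries were left out.

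The 1 member higher in WI than in CO was CPIJ003835, listed under transporter activity, at 45.7, 59.0, 31.3, 35 and 37.9 CPM in WI libraries, against 22.2, 28.7, 18.7, 22 and 19.3 CPM in CO libraries. All 5 WI libraries were above all 5 CO libraries. Its log2 fold change was 0.91 ± 0.21 (SE) with an edgeR adjusted p of 0.00716, and it was not called with library size as the only scaling (0.58, adjusted p of 0.147) or with only WI and CO in the fit (0.88, adjusted p of 0.0508).

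Of the 18 ribosome biogenesis members 3 were lower in WI than in CO, namely CPIJ002895, CPIJ010820 and CPIJ009916, of which CPIJ010820 and CPIJ009916 were chosen after their values were seen. CPIJ002895 had a log2 fold change of -0.83 ± 0.27 (SE) and an edgeR adjusted p of 0.0475. Among the other named members, CPIJ005204 (msrA) was lower in WI at -1.39 ± 0.40 (SE), the helicase CPIJ014038 at -1.16 ± 0.30, CPIJ005048, a gene listed under gamete generation, at -0.97 ± 0.25, the pseudouridine synthase CPIJ000029 at -0.90 ± 0.26 and CPIJ014981 at -0.84 ± 0.20. Without CO replicate 1 the values of CPIJ000029, CPIJ002895, CPIJ005048 and CPIJ014038 were -0.51, -0.68, -0.63 and -0.71 and none of the 4 was called. With CO replicates 1 and 2 both left out all 4 were called. The edgeR adjusted p-values were then 0.0346 for CPIJ000029, 0.00316 for CPIJ002895 and 0.0274 for CPIJ005048, while CPIJ005204 was not called (0.0975). CPIJ000029 was also not called without WI replicate 2, 3, 4 or 5 or CO replicate 3. When single libraries were left out, CPIJ002895 kept its call only without CO replicate 2. CPIJ005204 was not called without WI replicate 2, 3 or 5 or CO replicate 2 or 5, with edgeR adjusted p-values between 0.0123 and 0.0759 over the 10 libraries left out in turn. With only WI and CO in the fit, CPIJ008926 kept its call, while CPIJ003835, CPIJ005204, CPIJ014038, CPIJ005048, CPIJ000029, CPIJ014981 and CPIJ002895 did not, with edgeR adjusted p-values of 0.0508 or more.

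**Figure D5:**
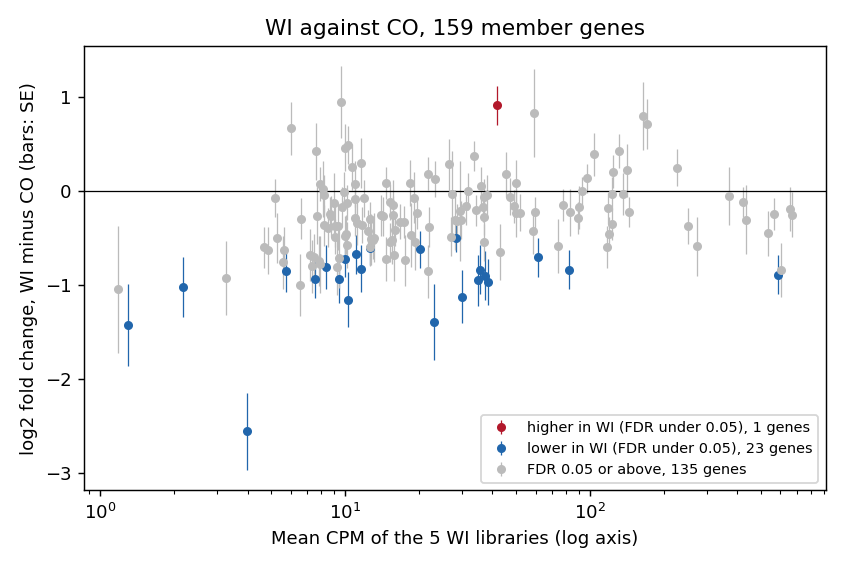
log2 fold change of WI over CO (bars, SE) against the mean WI level (log axis) for the 159 members, coloured by the edgeR call. 23 members lie below 0 and are called, 1 lies above 0 and is called, and the lowest point is CPIJ008926 at -2.56.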

How the data were processed

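RNA from pooled whole *Cx. quinquefasciatus* females of 4 groups (5 libraries each) had been trimmed with Trim Galore 0.6.4, aligned by STAR 2.7.3a to the CpipJ2.4 genome and counted per gene by featureCounts 1.6.0, per the labels and the study's methods. The authors deposited raw counts per gene, 1 table per library. Here genes were kept with filterByExpr (minimum count 10, minimum total 15), scaled by TMM and fitted in edgeR 4.0.16 (R 4.3.3) with 1 mean per group over all 20 libraries. glmQLFTest was adjusted by Benjamini-Hochberg over 17499 genes. The code was tested on simulated data. DESeq2 1.42.0 was an alternative.

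The members, the rule and the lists were chosen with earlier results of these data known. Named genes were the members among the study's 94 detoxification genes or named genes, the 2 deepest members of each list, the 2 deepest overall and the largest rise and fall in WI against CO. Other members were picked outside this rule, as stated where they appear. The labels name no pairing of replicate numbers. Deviations of same-numbered WI and CO libraries correlated at 0.168 to 0.465, against -0.354 to 0.262 for different numbers. These ranges overlap, so the replicate block was used only as an alternative. For MS and WI the same-numbered correlations were 0.0228 to 0.274, against -0.189 to 0.132 for different numbers, and those libraries were not taken as paired. No reference sequence of the files' identifiers was used here.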

Additional observations from a re-analysis of the deposited data

Results flagged for a closer look

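Dixon's criterion was applied to 104 groups of 5 libraries, covering the named members and the library measures, and found a far library in 18. The groups reuse the same 20 libraries and are not independent, so this count is not set against a chance rate. MS replicate 1 was the far one for the scaling factor (1.08, against 0.563 to 0.704 in the other MS libraries), for the median member level over the WI mean (0.571, against 0.435 to 0.469), and for the CPM of CPIJ004078 (5.67, against 3.60 to 4.15), CPIJ004081 (8.75, against 5.86 to 6.61) and CPIJ008791 (10.5, against 5.68 to 6.44). CO replicate 1 was the far one for the median member level (1.54, against 1.04 to 1.18) and for CPIJ004078 (30.9 CPM), CPIJ008791 (59.0 CPM), CPIJ009431 (57.9 CPM), CPIJ010674 (140 CPM), CPIJ012510 (34.5 CPM) and CPIJ014038 (46.6 CPM), each high. CPIJ000029 was high in WI replicate 1 (48.4 CPM) and CPIJ008554 in CO replicate 2 (225 CPM). CPIJ010231 was high in WI replicate 5 (17.0 CPM) and CO replicate 4 (27.0 CPM), and CPIJ012159 in MR replicate 1 (14.1 CPM) and CO replicate 4 (13.3 CPM).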

How the results depend on the processing

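The 159 genes meeting the rule became 364 with library size alone and 153 to 294 with single libraries left out, and 1648 with library size alone and MS replicate 1 also left out, an alternative chosen after seeing the data. The median MS over WI ratio of 0.486 became 0.350 and 0.284 under these 2 scalings and ran from 0.462 to 0.510 with single libraries left out. Members lower in WI than in CO numbered 23, but 36 with the replicate block, 42 with DESeq2, 1 with only the 2 groups compared and 8 to 42 with single libraries left out. With CO replicates 1 and 2 both left out their number was again 23. Members higher numbered 1, but 4 with the replicate block, 0 with library size alone and with only the 2 groups compared (edgeR; 2 and 3 at an unadjusted p under 0.05), 2 with CO replicates 1 and 2 left out, and 1 to 3 with single libraries left out. The MR over WI band of the rule bears on counts in MR against WI, given here as values only. On the RNA lists 15 genes were lower in MR than in WI (14 that were not members), but 7 (7) with library size alone and 11 to 14 (11 to 14) with single libraries left out, and on the rRNA processing list 3, but 5 with the replicate block and 2 to 3 with single libraries left out, all added after seeing the data. The causes were not tested, and the shares of all genes called under these alternatives were not counted. With library size alone, all genes shifted to a median log2 change of -0.58 for MS minus WI and of -0.35 for WI minus CO. Of the 22 named members, the 8 called in WI against CO kept the sign of their log2 change under the alternatives run. Of those not called, 5 changed sign, never with a call: CPIJ018858 to 0.024 with the replicate block, 0.095 with CO replicates 1 and 2 left out and between -0.45 and 0.36 with single libraries left out, CPIJ008791 to 0.20 with CO replicates 1 and 2 left out and between -0.66 and 0.11 with single libraries left out, CPIJ008554 to -0.080 with library size alone, and with single libraries left out CPIJ006169 between -0.32 and 0.040 and CPIJ008588 between -0.20 and 0.0061. Levels near 1 CPM and the narrow separations limit which genes meet the rule.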
